A study of Homo sapiens with 4 samples.

Results

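Human mitochondria carry their own chaperones and proteases, and 10 genes that encode them were followed in SKBR3 breast cancer cells overexpressing VIRMA. The genes were chosen by name, as effectors of the mitochondrial unfolded protein response: HSPD1, HSPE1, HSPA9, GRPEL1, TRAP1, LONP1, CLPP, CLPX, YME1L1 and HTRA2. They are 10 of the 56271 rows of the count table. All 10 passed the expression filter (RPKM, a count scaled to exonic length and library total, above 1 in at least 2 libraries), as did 12205 genes in all. SKBR3 is an established HER2-positive breast cancer line. The eGFP control cells (2 libraries) carried a FUW lentiviral vector with eGFP behind the ubiquitin C promoter. The VIRMA-overexpressing cells (2 libraries) carried HA-tagged VIRMA and eGFP, joined through p2A, in the same type of vector. The study made a full-length and an N-terminal VIRMA construct, and names the full-length form for its SKBR3 expression comparison. In both groups eGFP-positive cells were sorted and expanded, so each group is a transduced population. VIRMA is a scaffold of the complex that writes N6-methyladenosine on RNA. The labels attach to every library a culture text that describes a hypoxic chamber, in the same words for both groups. Whether these RNA samples came from low oxygen is not settled by the labels. The study's methods describe protein lysis after its hypoxia treatment and name no hypoxia for mRNA sequencing.

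Most mitochondrial proteins are made in the cytosol, threaded through the TOM and TIM complexes and folded in the matrix. The HSP70 of the matrix, mortalin (HSPA9), pulls proteins in and folds them with its nucleotide exchange factor GRPEL1, and the HSP60 chaperonin (HSPD1) with its lid HSP10 (HSPE1) encloses proteins while they fold. Proteases remove what fails to fold: LONP1 and the CLPXP pair work in the matrix, YME1L1 on the outer face of the inner membrane and HTRA2 in the intermembrane space. When matrix proteins misfold, a nuclear response involving ATF4, ATF5 and CHOP (DDIT3) is known to raise genes of this kind.

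The libraries held 81446932 to 86375474 counts. VIRMA itself, listed as KIAA1429, was counted 710 and 682 times in control cells and 3437 and 3460 times in cells that overexpressed it, the direction given by the labels. Of all counts, 11.4% and 11.6% were of mitochondrially encoded genes in the controls, and 12.8% in each VIRMA-overexpressing library. The luminal and HER2 markers of SKBR3 were present, at 27480 to 29360 CPM in sum (CPM, counts scaled to library size with TMM factors), with CDH1, a gene this line is known to have lost, at 5 to 33 counts. KRT7 was the highest and KRT8 the lowest of these markers, at log2 fold changes of 0.49 and -0.51, both called by edgeR. Of 8 fibroblast and mesenchymal markers, 2 passed the filter and both fell, COL1A1 by the most (log2 fold change -0.62), and DCN and LUM had 0 to 3 counts in every library. The markers summed to 68.9 and 73.8 CPM in the controls and 45.2 and 48.2 CPM in the VIRMA-overexpressing libraries, and their part in the results was not tested.

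When VIRMA was overexpressed, 4 of the 10 genes were higher and 5 lower (quasi-likelihood test of edgeR, adjusted p below 0.05 over all tested genes), and TRAP1 was not called. HSPA9, LONP1, YME1L1 and CLPX rose, and HSPE1, CLPP, HTRA2, GRPEL1 and HSPD1 fell. Calls were common among all tested genes as well: 71.0% passed the same threshold, 35.1% as higher and 35.9% as lower. The groups did not overlap in CPM for 9 of the 10 genes, against 84.3% of all tested genes. No member reached a 2-fold change. With edgeR, DESeq2 or limma-voom, 0 of the 10 had an adjusted p below 0.05 together with an absolute log2 fold change above 1. Of all tested genes, 7.46% passed both thresholds with edgeR. At an unadjusted edgeR p below 0.05 the count of called members was 9 of 10, against 72.8% of all tested genes. The median absolute log2 fold change was 0.35 over the members and 0.34 over all tested genes, and the median signed log2 fold change was -0.14 over the members and 0.01 over all tested genes. These signed medians were -0.06 and 0.10 with library totals, and -0.07 and 0.08 with upper-quartile scaling. By the size of their changes the members were close to other genes, and they differed from each other in direction.

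**Figure D1:**
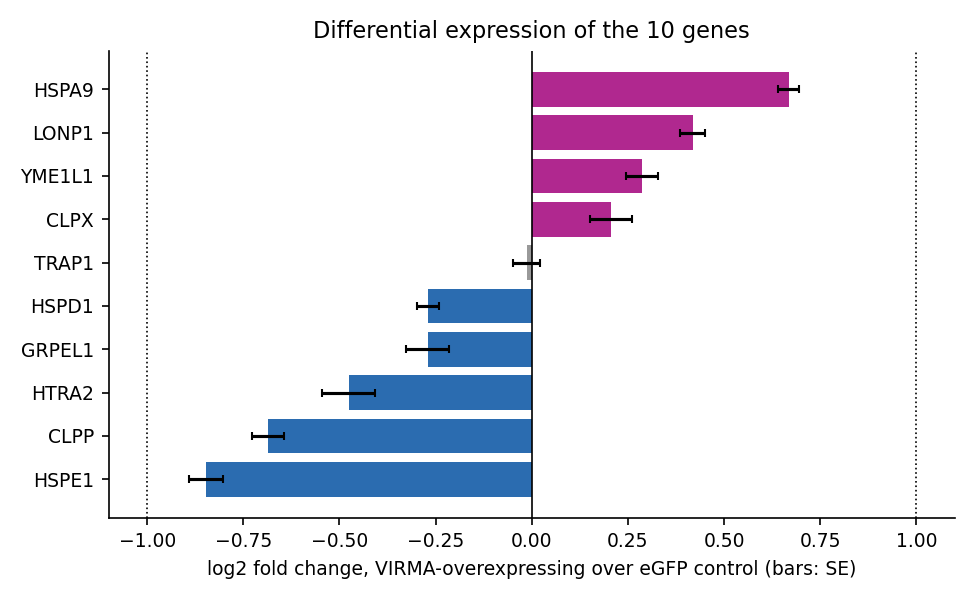
The plot gives the log2 fold change of each gene (horizontal axis, VIRMA-overexpressing over eGFP control) with its standard error from edgeR, in magenta where higher, in blue where lower and in grey where not called; dotted lines mark log2 fold changes of 1 and -1. HSPA9 stands highest at 0.67, HSPE1 lowest at -0.85, and no bar reaches a dotted line.

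Per length of exon, HSPA9 and HSPD1 were the most abundant transcripts of the set in the controls, at 99.8 ± 0.405 and 99.2 ± 0.618 RPKM (SD, n = 2), and their ranges overlapped. CLPP (39.2 RPKM), HSPE1 (35.9), LONP1 (31.7) and TRAP1 (23.4) followed. HTRA2 (9.35), GRPEL1 (9.12), YME1L1 (8.25) and CLPX (5.75 RPKM) were lowest, with HTRA2 and GRPEL1 not separated beyond their spread. In VIRMA-overexpressing cells the order was HSPA9 at 168 RPKM, HSPD1 at 87.2, LONP1 at 44.9, CLPP at 25.8, TRAP1 at 24.6, HSPE1 at 21.1, YME1L1 at 10.7, GRPEL1 at 8.01, HTRA2 at 7.12 and CLPX at 7.03. There the range of HTRA2 overlapped those of GRPEL1 and of CLPX, which did not overlap each other. The 2 leaders, level in the controls, were thus 1.93-fold apart in VIRMA-overexpressing cells, as the mean of the within-library RPKM ratios of HSPA9 to HSPD1. RPKM divides by the exonic length listed for a gene, not by that of the transcript expressed, so orders between genes depend on that length. It also uses library totals without TMM factors, so changes between groups differ from those in CPM. TRAP1 spanned 22.9 to 23.9 RPKM in the controls and 24.4 to 24.7 RPKM in VIRMA-overexpressing cells, without overlap, while its groups overlapped in CPM. The count of a library does not tell less transcript per cell from fewer cells that carry it.

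**Figure D2:**
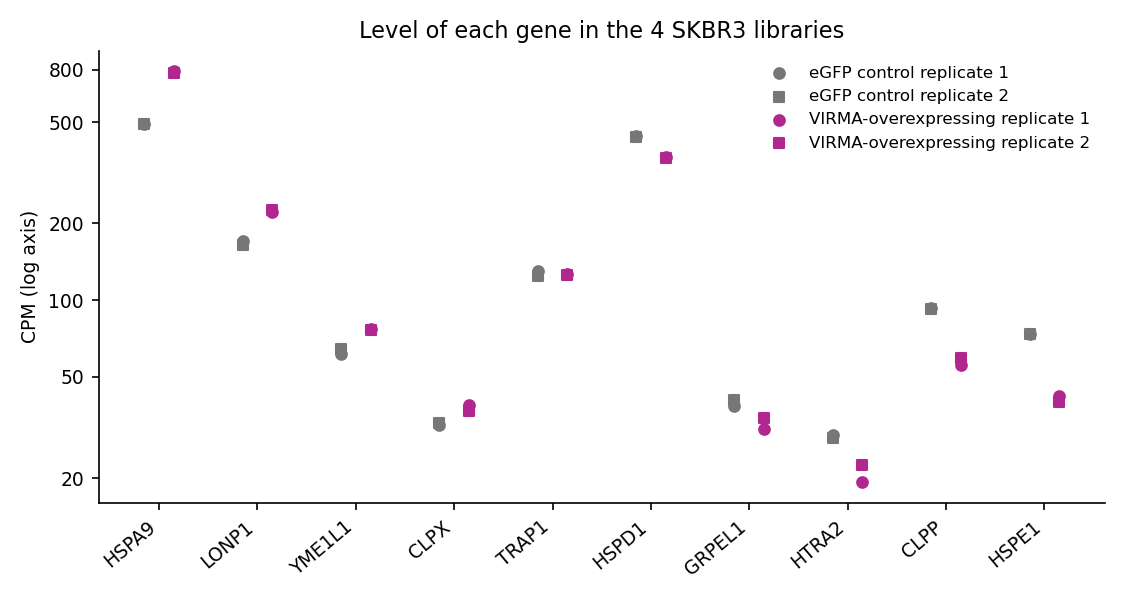
The plot gives the CPM of each gene (log axis) in every library, grey for eGFP control and magenta for VIRMA-overexpressing, circles for replicate 1 and squares for replicate 2; genes run from the highest to the lowest log2 fold change. The replicates of a group lie close together, and TRAP1 is the gene whose groups overlap.

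HSPA9 (GRCh38 chromosome 5, 138554882 to 138575444, minus strand) encodes mortalin, the ATP-driven motor of matrix import. It stood at 493 CPM in both control libraries and at 790.5 and 776 CPM in the VIRMA-overexpressing libraries. Both VIRMA-overexpressing libraries lay above both controls. The log2 fold change was 0.67 (standard error 0.0276, adjusted p from edgeR 1.27e-21), or 1.59-fold higher, and it lay above those of 88.5% of all tested genes. The summed level of the 10 genes was 1560 and 1552 CPM in the controls and 1766 and 1760 CPM with VIRMA overexpressed. This was a ratio of 1.13. Without HSPA9 the ratio was 0.921. HSPA9 was taken out as the member with the greatest rise, so a lower ratio was fixed by that choice. Both ratios depend on the scaling. Without TMM factors, the 10 genes held 0.151% and 0.149% of all counts in the controls and 0.181% and 0.179% with VIRMA overexpressed.

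GRPEL1 (chromosome 4, 7058906 to 7068197, minus strand) encodes the exchange factor that releases ADP from mortalin. It had 38.6 and 40.7 CPM in the controls and 31.3 and 34.4 CPM in VIRMA-overexpressing cells. Both VIRMA-overexpressing libraries lay below both controls. The log2 fold change was -0.27 (standard error 0.0559, adjusted p from edgeR 5.79e-05). GRPEL2, its paralogue and the second exchange factor of the matrix, went the other way: it had 25.1 and 26.5 CPM in the controls and 46.6 and 45.9 CPM with VIRMA overexpressed, a log2 fold change of 0.84 (standard error 0.0541, adjusted p from edgeR 4.18e-16). Within libraries the RPKM ratio of GRPEL2 to GRPEL1 was 0.615 and 0.616 in the controls and 1.41 and 1.26 in VIRMA-overexpressing cells, so that the more abundant of the pair was GRPEL1 in the controls and GRPEL2 in VIRMA-overexpressing cells. The ratio of GRPEL1 to HSPA9 was 0.089 and 0.0938 in the controls and 0.045 and 0.0504 in VIRMA-overexpressing cells.

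HSPD1 (chromosome 2, 197486581 to 197516737, minus strand) encodes HSP60, the barrel of the mitochondrial chaperonin. Its level was 439 and 437 CPM in the controls and 363 CPM in each VIRMA-overexpressing library. The fall was small and clear of the spread between libraries, at a log2 fold change of -0.27 (standard error 0.0289, adjusted p from edgeR 2.38e-10), or 1.21-fold lower. HSPE1 (chromosome 2, 197499994 to 197503457, plus strand) encodes HSP10, the lid that closes the barrel. It had 73.7 and 73.8 CPM in the controls and 42.1 and 39.9 CPM in VIRMA-overexpressing cells. This was the greatest fall among the members, a log2 fold change of -0.85 (standard error 0.0442, adjusted p from edgeR 1.16e-18), or 1.80-fold lower, below those of all but 5.06% of tested genes. The RPKM ratio of HSPE1 to HSPD1 was 0.361 and 0.362 in the controls and 0.249 and 0.236 in VIRMA-overexpressing cells. The transcript counts of the barrel gene and the lid gene thus fell by unequal amounts.

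**Figure D3:**
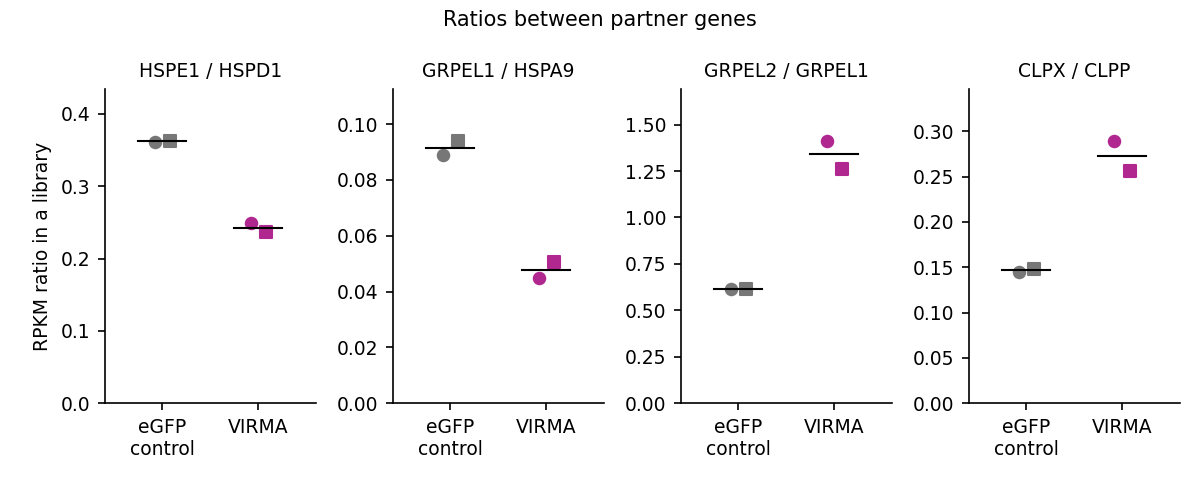
Each panel gives the RPKM ratio of 2 partner genes within each library (vertical axis from 0; grey eGFP control, magenta VIRMA-overexpressing, circles replicate 1, squares replicate 2, lines group means). HSPE1 to HSPD1 and GRPEL1 to HSPA9 are lower in both VIRMA-overexpressing libraries, and GRPEL2 to GRPEL1 and CLPX to CLPP are higher in both.

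HSPD1 and HSPE1 lie head to head. RefSeq places the HSPE1 start 105 and 539 bases from 2 starts of HSPD1 on the opposite strand. These starts lie in a single short region. In the count table, HSPD1 also has an exon block 16231 to 16358 bases beyond the HSPE1 start, upstream for HSPD1. The first HSPE1 exon block begins at -385 from its RefSeq start. Which starts were used was not tested. The sequence is shown because starts of both genes lie near it and the 2 genes fell by different amounts. The window runs from 250 bases before to 50 bases after the HSPE1 start (chr2:197500129-197500428, plus strand, GRCh38.p14), and the capitals mark an E-box, CACGTG, that begins at position -22 from the start.
HSPE1: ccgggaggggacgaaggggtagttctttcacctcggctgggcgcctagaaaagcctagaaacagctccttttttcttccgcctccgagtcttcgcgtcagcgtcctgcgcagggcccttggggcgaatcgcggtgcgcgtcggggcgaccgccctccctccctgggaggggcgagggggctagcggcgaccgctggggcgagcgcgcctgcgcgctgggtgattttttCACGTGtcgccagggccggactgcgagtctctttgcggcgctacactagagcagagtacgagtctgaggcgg

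The same E-box bases begin at -88 from the upstream start of HSPD1. In the window of the other HSPD1 start, GAANNTTC, the short form of a heat shock element, matched once, at -240. Across the 35116 RefSeq promoter windows of this length, 7.26% hold CACGTG and 6.77% hold GAANNTTC. For 7 of the 10 members a window on the gene's own chromosome was used, 10 windows in all. Any window listed under a member's name on another chromosome was left out. Every motif was searched on both strands. TGATGNAA, a C/EBP-ATF element, matched none of the 10 windows and 3.62% of all windows. The GC box GGGCGG was in 8 of the 10 windows, against 45.0% of all windows, and CCAAT in 1, against 34.6%. The members' windows were 63.0% to 76.3% G and C, where the median window was at 58.7%.

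The counts of this locus carry limits. In the count table HSPD1 and HSPE1 share 281 exonic bases on opposite strands, or 6.62% of HSPD1 and 14.2% of HSPE1. The readthrough gene HSPE1-MOB4 shares 192 bases with HSPE1 on the same strand and is listed at 0 in all 4 libraries, where HSPE1 had 3301 to 6115 counts. The table also holds 15 rows named as HSPD1 pseudogenes and 26 as HSPE1 pseudogenes. Their counts summed to 0.323% to 0.603% of those of HSPD1 and 0.883% to 2.12% of those of HSPE1. Both shares were higher in both VIRMA-overexpressing libraries than in both controls. The HSPD1 pseudogene counts were 119 and 117 in the controls and 177 and 181 in VIRMA-overexpressing cells. The HSPE1 pseudogene counts overlapped between groups, at 75 and 54 against 72 and 70, so their share rose as the HSPE1 count fell. Whether reads of shared or near-identical sequence were counted is not stated, so the level of HSPE1 relative to HSPD1 is uncertain, and the part of pseudogenes in its fall was not tested.

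**Figure D4:**
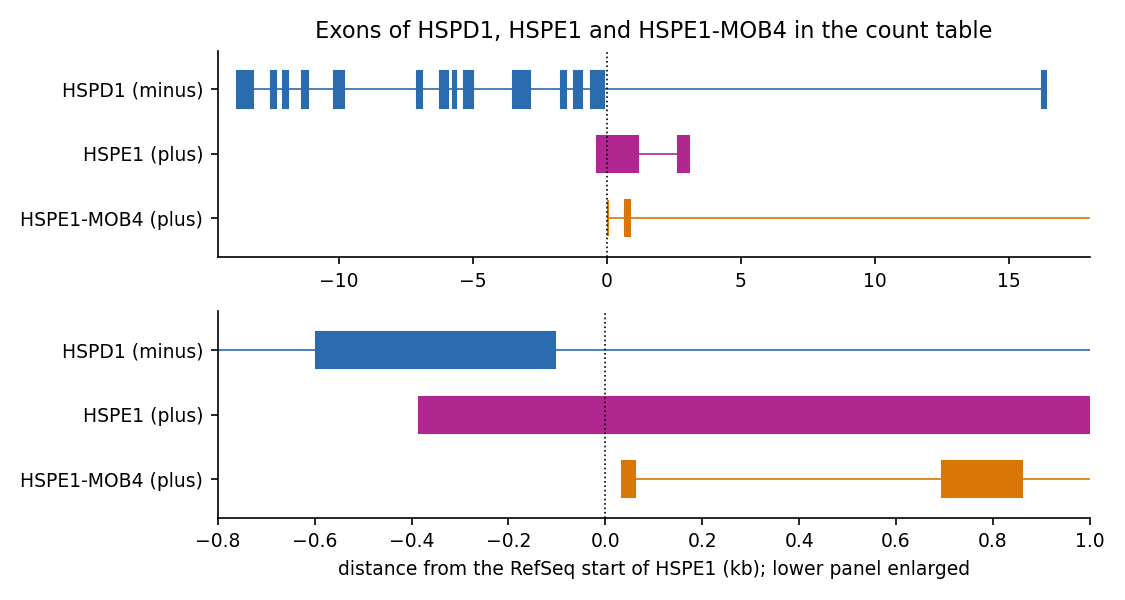
The map shows the exons of HSPD1 (blue, minus strand), HSPE1 (magenta, plus strand) and HSPE1-MOB4 (orange, plus strand) as the count table merges them, by distance in kilobases from the RefSeq start of HSPE1 (dotted line); the lower panel enlarges the start region. The first HSPE1 block runs over the end of an HSPD1 exon block, and both leading HSPE1-MOB4 exons lie inside it.

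TRAP1 (chromosome 16, 3651639 to 3717597, minus strand), the mitochondrial HSP90, was the member without a call. Its level was 130 and 125 CPM in the controls and 126 CPM in each VIRMA-overexpressing library. The groups overlapped. The log2 fold change was -0.01 (standard error 0.0349, adjusted p from edgeR 0.741), and it turned positive with upper-quartile factors (0.06) and library totals (0.07). Of the exonic bases of TRAP1, 29.3% are shared with DNASE1 on the opposite strand, which was counted 2625 and 2805 times in control cells and 3808 and 3904 times in VIRMA-overexpressing cells. The part of this overlap was not tested.

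Among the matrix proteases, LONP1 (chromosome 19, 5691834 to 5720572, minus strand) rose. It encodes an ATP-driven protease that clears damaged matrix proteins. It had 170.3 and 165 CPM in the controls and 222 and 226 CPM in VIRMA-overexpressing cells. The groups were well apart, with a log2 fold change of 0.42 (standard error 0.0324, adjusted p from edgeR 7.12e-14), or 1.34-fold higher. HSPA9 and LONP1, the 2 members with the greatest rises, are given with their RefSeq windows, in which capitals mark CACGTG or, in the upstream LONP1 window, GCATGCGC, the core of the element bound by the factor NRF1. The windows are chr5:138575352-138575651 for HSPA9, chr19:5720097-5720396 for the downstream and chr19:5720403-5720702 for the upstream start of LONP1, all on the minus strand.
HSPA9: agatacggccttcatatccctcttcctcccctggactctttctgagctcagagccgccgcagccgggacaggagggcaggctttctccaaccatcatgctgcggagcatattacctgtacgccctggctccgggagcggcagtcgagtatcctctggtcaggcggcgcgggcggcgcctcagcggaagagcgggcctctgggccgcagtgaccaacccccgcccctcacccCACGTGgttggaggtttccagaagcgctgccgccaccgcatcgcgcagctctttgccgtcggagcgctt
LONP1 downstream start: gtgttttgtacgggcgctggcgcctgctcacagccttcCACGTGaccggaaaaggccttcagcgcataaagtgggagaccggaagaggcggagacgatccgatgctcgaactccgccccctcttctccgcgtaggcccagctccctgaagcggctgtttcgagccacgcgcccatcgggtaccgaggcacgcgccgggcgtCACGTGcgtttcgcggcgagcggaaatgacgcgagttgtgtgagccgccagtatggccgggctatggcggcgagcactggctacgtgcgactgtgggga
LONP1 upstream start: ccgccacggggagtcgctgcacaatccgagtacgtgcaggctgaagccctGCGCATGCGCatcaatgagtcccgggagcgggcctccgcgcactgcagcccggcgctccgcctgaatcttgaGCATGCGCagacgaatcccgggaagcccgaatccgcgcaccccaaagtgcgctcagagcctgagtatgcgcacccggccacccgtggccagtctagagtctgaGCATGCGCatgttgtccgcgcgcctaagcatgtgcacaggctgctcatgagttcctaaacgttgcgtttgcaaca

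CACGTG begins at -19 from the HSPA9 start and at -49 and -212 from the downstream LONP1 start. Together with the shared site of HSPD1 and HSPE1, 4 of the 7 genes with a window held it, 2 of them rising and 2 falling. GCATGCGC matched 4 times in the upstream LONP1 window, at -200, -198, -128 and -25 from the start, and the first 2 matches overlap. It was in no other member's window and in 3.05% of all windows. The matches are letters in these windows, not sites of binding.

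CLPX and CLPP encode the 2 parts of 1 protease, the ATP-driven unfoldase and the proteolytic chamber it feeds, and they moved in opposite directions. CLPX (chromosome 15, 65148219 to 65185342, minus strand) had 32.5 and 32.9 CPM in the controls and 38.7 and 36.6 CPM in VIRMA-overexpressing cells. It rose by a log2 fold change of 0.21 (standard error 0.0542, adjusted p from edgeR 0.00108), the smallest rise called among the members. CLPP (chromosome 19, 6361452 to 6368908, plus strand) had 93.2 and 92.3 CPM in the controls and 55.8 and 59.5 CPM in VIRMA-overexpressing cells. Its log2 fold change was -0.69 (standard error 0.0408, adjusted p from edgeR 5.12e-17), or 1.61-fold lower. The RPKM ratio of CLPX to CLPP was 0.145 and 0.148 in the controls and 0.289 and 0.256 in VIRMA-overexpressing cells. Of the matrix proteases, the RPKM ratio of LONP1 to CLPP was 0.818 and 0.797 in the controls and 1.78 and 1.70 in VIRMA-overexpressing cells. LONP1 thus passed CLPP in level per exonic length only. In CPM, LONP1 was above CLPP already in the controls, at means of 167 and 92.8.

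Outside the matrix, the directions differed as well. YME1L1 (chromosome 10, 27110112 to 27155266, minus strand), the inner membrane protease that cleaves OPA1 and turns over import subunits, had 61.4 and 64.4 CPM in the controls and 77.2 and 76.2 CPM in VIRMA-overexpressing cells. It rose by a log2 fold change of 0.29 (standard error 0.0407, adjusted p from edgeR 1.17e-07). HTRA2 (chromosome 2, 74529377 to 74533348, plus strand), a serine protease known to promote apoptosis once released into the cytosol, had 29.6 and 28.7 CPM in the controls and 19.3 and 22.6 CPM in VIRMA-overexpressing cells. It fell, with a log2 ratio of -0.48 (standard error 0.0684, adjusted p from edgeR 1.44e-07), and its VIRMA-overexpressing libraries differed more than its controls. Exons of AUP1 and LOXL3 on the opposite strand share 36.9% of the exonic bases of HTRA2. AUP1 was counted 22575 and 22470 times in control cells and 18113 and 17738 times in VIRMA-overexpressing cells, several times the count of HTRA2 in every library, and its part in the fall of HTRA2 was not tested. MASTL shares 6.04% of YME1L1 on the opposite strand and had fewer counts in VIRMA-overexpressing cells (773 and 726, against 1013 and 1087).

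The genes most like HSPD1 in pattern were not its neighbour or its lid. Over the 4 libraries, the genes with centred log2 CPM nearest to HSPD1 were YWHAB, SEPW1 and EIF3K, at Euclidean distances of 0.00509, 0.00678 and 0.00984 among 12149 genes. Among the members GRPEL1 was nearest, at a distance of 0.114 and rank 1205, and HSPE1 was at 0.579 and rank 7755. The measure rests on 4 libraries in 2 groups whose replicates lie close together. The distance therefore mostly restates the difference in log2 fold change and is no separate result. YWHAB, SEPW1 and EIF3K had log2 fold changes of -0.273, -0.273 and -0.263, beside -0.271 for HSPD1.

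Other genes of mitochondrial folding and cleavage went in both directions. Of 10 other mitochondrial chaperones and cochaperones tested (of 11 listed), 4 rose and 2 fell, with a median log2 fold change of 0.13. With library totals 5 rose and the median was 0.21, with upper-quartile scaling 5 and 0.20, and with filterByExpr 4 and 0.08. GRPEL2 was the highest. CLPB, a disaggregase of the intermembrane space, was the lowest: 37.0 ± 1.62 CPM in control cells against 18.8 ± 0.288 CPM (SD, n = 2 each), a change of -0.98 on the log2 scale (standard error 0.0617, adjusted p from edgeR 2.83e-16). Of 13 other proteases and peptidases, 3 rose and 5 fell, with a median of -0.08 that turned to 0.01 with library totals; without eGFP control replicate 1 or VIRMA-overexpressing replicate 1, 0 rose. The highest was OMA1, the stress-activated inner membrane protease, at 0.32 (standard error 0.0910, adjusted p from edgeR 0.00244), and the lowest ATP23 at -0.86 (standard error 0.136, adjusted p from edgeR 8.70e-07).

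The partners of the proteases in the inner membrane and the import complexes had few or no rises. Of 6 protease scaffolds and substrates, 5 fell and 0 rose, with a median log2 fold change of -0.46; under upper-quartile scaling or library totals 1 rose. The lowest was PGAM5, a mitochondrial phosphatase, at -0.75 (standard error 0.0379, adjusted p from edgeR 4.65e-19). Of 19 TOM and TIM components tested (of 21), 15 fell and 0 rose, with a median of -0.45, led by TIMM8B at -0.82 (standard error 0.0399, adjusted p from edgeR 1.44e-19). With library totals 14 fell and 2 rose. In 19 matrix enzymes and porins, included as a reference for nuclear transcripts of the organelle, 16 fell and 1 rose, with a median of -0.34. With library totals the counts were 13 and 2 and the median -0.26. VDAC3, an outer membrane channel, was lowest at -0.58, and HADHB, a fatty acid oxidation enzyme, highest at 0.14. These are transcript levels and do not measure mitochondrial content. The share of mitochondrially encoded counts went the other way, at 11.4% and 11.6% in the controls and 12.8% in each VIRMA-overexpressing library. Of the members 4 rose and 5 fell, while most genes of the scaffold, import and matrix enzyme lists fell. HSPA9, LONP1, YME1L1 and CLPX are set apart from these lists by their direction alone, so that contrast follows from the choice. The lists give counts and no test.

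**Figure D5:**
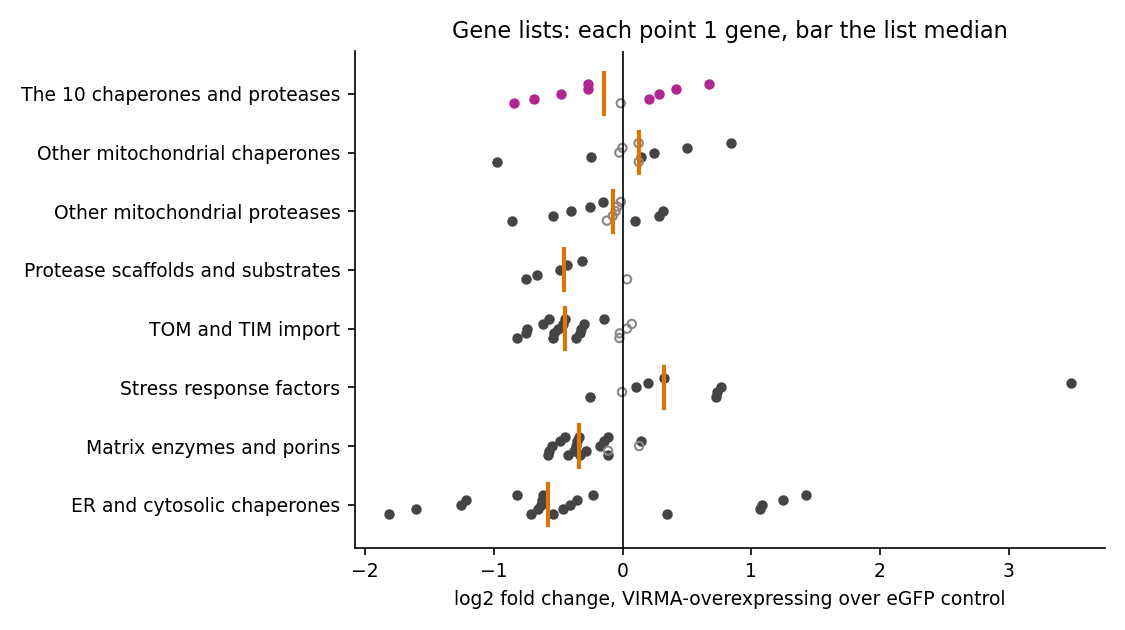
Each point is the log2 fold change of 1 tested gene (horizontal axis), filled where called by edgeR and open where not, with the median of each list as an orange bar; the 10 chaperones and proteases are in magenta. The import, scaffold and matrix enzyme lists lie mostly below 0, and the 10 chaperones and proteases spread over both sides, from -0.85 to 0.67.

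A list of 9 genes held stress factors and their relay (ATF4, ATF5, DDIT3, CEBPB, HSF1, DELE1 and EIF2AK1) and TFAM and NRF1, which are known for mitochondrial biogenesis. Of the 9, 7 rose and 1 fell, with a median log2 fold change of 0.32, and 6 rose with filterByExpr, no filter, at least 10 counts in every library, or without replicate 2 of either group. DDIT3 was highest, at 12.1 and 12.5 CPM in the controls and 137 CPM in both VIRMA-overexpressing libraries. The lowest was TFAM, which packages mitochondrial DNA, at -0.25 (standard error 0.0475, adjusted p from edgeR 1.71e-05). ATF5, a factor known for driving mitochondrial chaperone genes, had 43.0 and 40.6 CPM in the controls and 43.6 and 39.7 CPM in VIRMA-overexpressing cells, and its groups overlapped (edgeR adjusted p 0.948). The remaining genes of the list were all called higher by edgeR. CEBPB was at 0.77, ATF4 at 0.73, NRF1 at 0.72, EIF2AK1 at 0.32, DELE1 at 0.20 and HSF1 at 0.10. ATF5 and these genes fall outside the rule for named genes and were added with their values known.

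The members were set beside their relatives in other compartments, since the HSP70 and HSP90 families have separate genes for the mitochondrion, the endoplasmic reticulum and the cytosol. In the HSP70 family, beside HSPA9 (log2 fold change 0.67), HSPA5 of the endoplasmic reticulum rose by 1.43 (standard error 0.0262, adjusted p from edgeR 3.78e-32), and HSPA8 of the cytosol was at -1.82 (standard error 0.0297, adjusted p from edgeR 1.15e-33). The other HSP70 relatives on the list were HYOU1 and HSPA13 of the endoplasmic reticulum at 1.24 and 1.07 and, of the cytosol, HSPA4 at -0.23, HSPA1A at -1.61 and HSPA1B at -1.25, all called by edgeR. HSPA1A and HSPA1B are near-identical copies whose reads may be split between them. In the HSP90 family, TRAP1 (-0.01) lay between HSP90B1 of the endoplasmic reticulum at 1.08 (standard error 0.0270, adjusted p from edgeR 3.47e-28) and the cytosolic HSP90AA1 and HSP90AB1 at -1.21 and -0.82. Of 20 chaperones of the endoplasmic reticulum and cytosol, 5 rose and 15 fell. The 5 that rose, named after their values were seen, were HSPA5, HSP90B1, HYOU1, HSPA13 and SIL1, which all work in the endoplasmic reticulum.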

How the data were processed

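The files hold poly-A RNA sequencing of 4 SKBR3 libraries, 2 per group, per the labels. The authors trimmed reads with Trimmomatic 0.39, aligned them to hg38 with STAR 2.5.2a and counted them with featureCounts. The deposited table holds raw counts, exon coordinates and exonic length for each gene. The study used a stranded library kit and describes its mRNA reads as strand-specific. The strand setting of the counting step and the handling of reads with several alignments are not given in the sources used here. The columns of the VIRMA-overexpressing libraries are headed by a number only, and were matched to that group because no other group was left. No column of another series was found, and 0 rows lacked a gene.

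RPKM was computed from library totals and exonic length, and genes with RPKM above 1 in at least 2 libraries (the RPKM limit is the study's, the number of libraries was set here) were tested with edgeR 4.0.16 in R 4.3.3: TMM factors, quasi-likelihood F test, group as the only term, Benjamini-Hochberg adjustment over 12205 genes. CPM uses the summed counts of tested genes and TMM factors (0.968 to 1.03). Standard errors are the log2 fold change over the square root of F. Alternatives used DESeq2 1.42.0, limma 3.58.1 (voom), other scalings and filters, a replicate block and leaving out libraries. The lowest two-sided p that exact permutation of 4 libraries allows is 0.33. The fit was tested on simulated data in which 200 of 12205 genes were changed. It recovered 82% of log2 changes of 0.5 and 98% of those of 1, and called 14 unchanged genes. Far fewer genes changed there than were called in the real data, so it does not test the scaling when most genes move. Replicates differed beyond sampling noise (chi-square per degree of freedom 7.87 and 6.17). The study calls them biological duplicates. Depth is given as total counts, and standard errors cover the spread between these libraries only.

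The members and gene lists were chosen with earlier results of these data known. The named genes were all members, the highest and lowest called gene of each other list, the paralogues HSPA5, HSPA8, HSP90B1, HSP90AA1, HSP90AB1 and GRPEL2, VIRMA, and the 3 genes nearest to HSPD1 over the libraries. Untested markers, genes that share exons with members, the further HSP70 genes and the members of the stress list were named outside this rule. Positions are the file's, on GRCh38, and all 10 overlap their GENCODE genes. Promoter windows are from RefSeq (GRCh38.p14).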

Additional observations from a re-analysis of the deposited data

How the results depend on the processing

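Under 13 alternatives, the 4 rises and 5 falls among the members were called in the same direction each time, including DESeq2 and limma-voom, and no member passed the 2-fold threshold. TRAP1 turned positive with upper-quartile scaling (0.058) and with library totals (0.072), without a call, and ran from -0.042 to 0.010 when 1 library was left out, positive without eGFP control replicate 1. The median log2 fold change of the members shifted beyond the replicate spread with upper-quartile scaling (-0.071), library totals (-0.056), filterByExpr (-0.186), no filter (-0.176) and at least 10 counts in every library (-0.172), and without VIRMA-overexpressing replicate 1 (-0.111). The first 5 settings shift the shared genes by a median of 0.072, 0.086, -0.044, -0.034 and -0.030. Leaving out 1 library, which assumes that a lone library varies like the other group, left 4 higher, 5 lower and 0 past both thresholds each time. The median then ran from -0.139 to -0.111, and the members from -0.887 to -0.808 (HSPE1), 0.656 to 0.682 (HSPA9), -0.733 to -0.640 (CLPP), -0.595 to -0.366 (HTRA2), 0.393 to 0.440 (LONP1), -0.342 to -0.203 (GRPEL1), 0.248 to 0.321 (YME1L1), -0.274 to -0.270 (HSPD1) and 0.165 to 0.245 (CLPX). Shared replicate numbers were not taken as pairs, since no label says so and deviations of same-numbered libraries correlated at 0.086 across genes; with the replicate block 4 members were higher, 5 lower and the median was -0.142. Depth limits the members little, at 1638 or more counts in every library.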
